A study of Mus musculus with 2 samples.

Results

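Sour taste receptor cells are the type III cells of the taste bud, epithelial cells that sense acid at their apical end and signal to sensory nerve fibres at their base. They carry the proton channel Otop1 and, as long-used markers, the polycystin-family channel genes Pkd2l1 and Pkd1l3. They are excitable cells with voltage-gated channels, synaptic vesicle proteins and secretory granules, and they arise from keratin-rich progenitors of the tongue epithelium that also give rise to the surrounding keratinocytes. The cells described here were single tdTomato-positive cells sorted from the tongue epithelium of C57BL/6 mice of a Pkd2l1-tdTomato line, in which a red fluorescent protein marks cells that use the Pkd2l1 promoter. Of the 56 single cells in the table of read counts, 52 had a read on at least 1000 genes and are the cells described below. The reference libraries were 2 pools of 50 to 100 tdTomato-positive cells (sour pools) and 4 pools of as many tdTomato-negative cells (control pools) from the same mouse line. The labels place the sour pools on plates 1 and 3 and the control pools used here on plates 1, 2 and 3; by the same numbering the single cells were on plate 4, so a difference between cells and pools cannot be told apart from one between plates. The labels name no animal for any cell, so the 52 cells count as 1 sample: shares, levels and correlations over them are descriptions, and only the pools were tested.

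Gene reads per cell numbered 219578 to 914244 (median 475248.5), spread over 1049 to 6467 genes (median 4399.5), against 10325 and 11729 genes in the sour pools. Levels are given as CPM, reads per 1000000 gene reads of a library, and a gene is called seen in a cell that has at least 1 read of it. The 4 cells left out had reads on 447, 691, 834 and 898 genes and held 2 or 3 of the 6 markers Pkd2l1, Pkd1l3, Otop1, Snap25, Ncam1 and Ddc. The cells just inside the limit had 1049, 1050, 1471 and 1518 genes and held 3, 5, 5 and 5 of them. No library was identical to another.

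All 52 cells carried at least 3 of the 6 markers and 43 carried all 6. Otop1 and Pkd1l3 were the ones most often missing. Pkd2l1, the gene whose promoter drives the sorted reporter (GRCm38 chromosome 19, 44147637 to 44192442), had a lowest level of 0, a median of 1503 and a highest of 4689 CPM, and 1 cell had no read. Pkd1l3, its partner channel gene (chromosome 8, 109614517 to 109674386), ran from 0 through a median of 1745 to 20795 CPM and was missing in 4 cells. Otop1 (chromosome 5, 38275972 to 38304217) ran from 0 through 339 to 1646 CPM and was missing in 7. In wells 305, 306, 318, 363 and 364 it counted as seen at only 1.44 to 3.98 CPM, at the limit of 1 read. The cells without Otop1 had reads on 1049 to 5540 genes, so they were not only the cells with few genes. Snap25, a membrane fusion protein of vesicle release, was seen in every cell at 510.1 to 12422 CPM (median 5001), above the 2239.8 and 1894 CPM of the sour pools at its median. Ncam1, a cell adhesion molecule, was seen in every cell at 129.8 to 4129 CPM (median 1013), and Ddc, the decarboxylase of monoamine synthesis, had a median of 939.6 CPM and was missing in 2 cells. In the control pools Otop1 and Ddc had no read and the others stayed at or below 14.5 CPM, under the level of every cell in which they were seen.

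**Figure D1:**
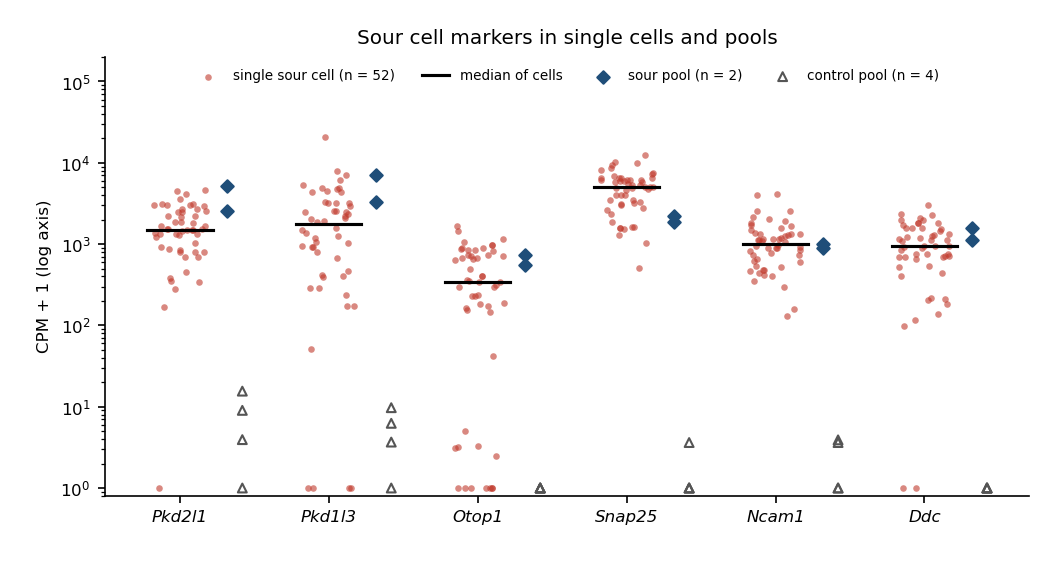
CPM + 1 on a log axis for the 6 markers in each of the 52 single cells (red points, black bar at their median), the 2 sour pools (blue diamonds) and the 4 control pools (open triangles). Points at the foot of the axis are cells or pools without a read; Otop1 was missing in 7 cells, Snap25 and Ncam1 in none, and the median of Snap25 lay above both sour pools.

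The cells resembled the sour pools more than the control pools in all but 2 cases. Pearson correlations of a cell's log2(CPM + 1) values over 9132 genes were taken with each pool and averaged over the pools of a kind. The average over the sour pools ran from 0.181 to 0.483 (median 0.412), and over the control pools from 0.117 to 0.493 (median 0.237). The mean of the 52 cells had r = 0.700 with the mean of the sour pools and 0.442 with the mean of the control pools. The 2 sour pools had r = 0.765 with each other. These values share the depth of the libraries and the set of genes. The 2 cells closer to the control pools were in the neighbouring wells 318 and 319. These cells still had reads of all 6 markers, with 278 and 168 CPM of Pkd2l1 and 1.44 and 146 CPM of Otop1. They had 20649 and 11040 CPM of Krt4, a keratin of the stratified tongue surface, and 37756 and 53906 CPM in all from 19 keratinocyte genes. The median over the 52 cells was 2410.4 CPM.

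A further pair of cells in neighbouring wells stood apart. Wells 300 and 301 had r = 0.569, the highest of 1326 pairs, against a median of 0.299 and 0.470 for the next pair, wells 318 and 319. Of the genes of the shallower cell of wells 300 and 301, 94.0% were also seen in the other, against a median of 62.95% and at most 83.3% in other pairs. Well 300 held 21615 CPM of Krt36 and 7378 CPM of Krt84, keratins known from hair, nail and tongue papillae, and well 301 had no read of either. Whether these 2 libraries share material was not tested, and the results on keratinocyte and stromal genes and on co-varying groups are given without wells 318 and 319, and in part without 300 and 301, as well. The 27 pairs in neighbouring wells of a plate column had a median r of 0.312, and the other pairs 0.299. A read of a Y-linked gene was seen in 44 of the 52 cells and in all 6 pools, while Xist had 1 read in 1 cell and none in the pools.

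**Figure D2:**
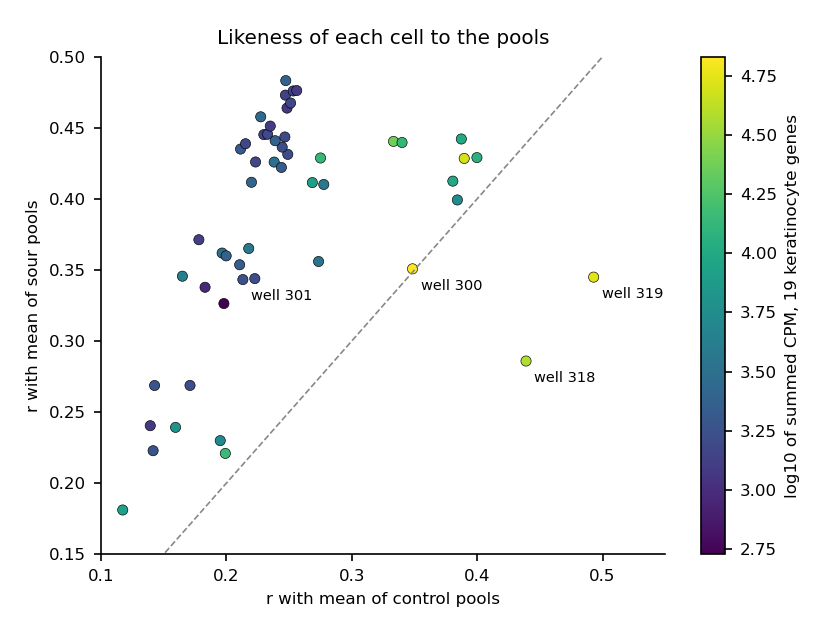
Each point is 1 of the 52 cells, coloured by the log10 of the summed CPM of 19 keratinocyte genes. Its correlations over 9132 genes were averaged over the control pools (x axis) and over the sour pools (y axis). The dashed line marks equal likeness. Wells 318 and 319 lie below the line, well 300 lies on it with the highest keratinocyte sum (67553 CPM), and the others lie above.

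The genes seen in nearly all cells describe what these libraries typically held. Such a gene need not be particular to sour cells: Krt4 had reads in 49 cells and was lower in the sour pools than in the control pools. At least 1 cell had a read of 14149 genes, at least 26 cells had one of 2869, at least 90% of cells had one of 359, and all 52 had one of 73. Between the pools 7739 genes were tested. A call needs a Benjamini-Hochberg adjusted p under 0.05 in the quasi-likelihood test of edgeR and at least a 2-fold difference. Called higher in the sour pools were 1158 (15% of those tested), and 638 without sour pool 1; 14.4% were called lower. A listed gene that the control pools lack was tested only where it was high enough in the sour pools, so counts of calls over a list describe the genes that passed the filter on low counts and are no test of the list.

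Ranked by median level per length (TPM, reads per base of exon, scaled so that a library sums to 1000000), the highest of the genes seen in every cell, ribosomal protein genes aside, were the nuclear noncoding RNA Malat1 (7883 TPM), the actin gene Actb (7709), the calmodulin gene Calm2 (7298), the noncoding host RNA Snhg11 (5449) and Dpysl2 (5352), a microtubule-binding protein of growing axons. Cd24a, a surface glycoprotein, had a median of 3448 TPM and Snap25 2721. The list held both genes that most cells use and genes of sour cells. Dpysl2 had 3738 and 4907 CPM in the sour pools and 109, 123, 80.2 and 26.2 CPM in the control pools, so that the groups did not overlap; its log2 fold change was 5.63 (SE 0.45, edgeR adjusted p = 7.2e-07). Cd24a had 3924 and 9178 CPM against 94.0, 168, 126 and 116 CPM, a log2 fold change of 5.67 (SE 0.40, adjusted p = 3.2e-07). Calm2 had 1687 and 2079.5 CPM against 725, 611, 1863 and 1021 CPM, where the groups overlapped and no difference was called (log2 fold change 0.80, SE 0.41, adjusted p = 0.16); with plate as a block in edgeR it was 1.17 and called (adjusted p = 0.011). Also seen in every cell were Pkib, an inhibitor of protein kinase A (453 to 11649 CPM, median 2411), and Nov, a secreted matrix protein (411 to 7115 CPM, median 2359).

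Genes for excitability and acid handling were seen unevenly. On the list of 22 sodium and calcium channel genes, 3 were seen in at least 26 cells: Scn3a, the pore of a sodium channel, in 49, Cacna1a, a calcium channel pore, in 47, and Cacna2d1, a calcium channel accessory subunit, in 39. Seen cells held a median of 549 CPM of Scn3a and 23.2 CPM of Cacna1a. Scn3a ran from 0 through 473 to 6843 CPM and had 166 and 133 CPM in the sour pools, without any control read (at least 88.6-fold higher than 3 reads over the 4 pools; edgeR adjusted p = 3.2e-05). No cell had a read of 7 of the 22. Of 25 potassium channel genes, Kcnk1, a leak channel gene, led with 45 cells, followed by Kcnc1 with 33 and Kcnq1 with 25, and Kcnj2, an inward rectifier tied to acid responses of sour cells in the mouse, was seen in 8. On the list for acid and base handling the pump genes Atp6v1b2 (46 cells), Atp6v0d1 (45) and Atp6v1a (44), which encode parts of the vesicular proton pump, and the carbonic anhydrase gene Car4 (44) were the most widely seen.

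Vesicle and granule genes were seen in every cell, though most of the listed genes in fewer than 26. Every cell held reads of 4 to 19 of 26 vesicle release genes (median 12), summing to 1909 to 14339 CPM (median 8205), against 4355 and 4931 CPM in the sour pools and 34.7 to 65.6 CPM in the control pools. Of the 26, 17 passed the filter and all 17 were called higher in the sour pools, where the share over all tested genes was 15%. Beside Snap25, Cplx2, the complexin that clamps and triggers fusion, was seen in every cell at 174 to 3086 CPM (median 856). It had 722 and 918 CPM in the sour pools and 2.94, 5.25, 0 and 2.91 CPM in the control pools, a log2 fold change of 8.01 (SE 0.48, adjusted p = 9.5e-08). The calcium sensor gene Syt1 was seen in 45 cells and the active zone scaffold Pclo in 44, whereas its relative Bsn was seen in 15. Of 15 dense core granule genes, the peptide-amidating enzyme gene Pam was seen in every cell, the prohormone convertase gene Pcsk1 in 50, its relative Pcsk2 in none, Cadps2, which primes granules, in 49, and Scg5, a chaperone of convertases, and the carboxypeptidase gene Cpe in 46 each. Pcsk1 ran from 0 through 1666 to 6729 CPM. It had 1171 and 732 CPM in the sour pools and 1 read in the 4 control pools (adjusted p = 8e-08). Of the granule genes 10 passed the filter, and all 10 were called higher in the sour pools (15% of all tested genes). The granins Chga and Chgb were seen together in 30 cells, Chga alone in 8, Chgb alone in 6 and neither in 8.

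Transmitter genes were few. Of 20 genes for transmitter synthesis and transport 3 were seen in at least 26 cells, and 9 in none, among them Th, Chat and the vesicular transporter genes Slc17a6 and Slc32a1. Being seen in 0 of 52 leaves room for a true share of up to 5.77% (3 cells of 52), or 6.85% by the exact 95% interval; these limits cover counting error only. Gad1, which makes GABA, was seen in 40 cells, 39 of them with Ddc. Ddc itself was missing in only 2 of the 52 cells, so most genes would overlap with it. Its relative Gad2 was seen in 10 cells, each of which also had Gad1, at a median of 3.6 CPM in those cells. Tph1, the enzyme that starts serotonin synthesis, was seen in 2. The vesicular monoamine transporter gene Slc18a2 was seen in 12 cells, all with Ddc, and Slc18a1 in 6, of which 4 had Slc18a2. Of 22 transmitter receptor genes none reached 26 cells; Chrm3, a muscarinic receptor gene, was seen in 21 and P2rx4, an ATP-gated channel gene, in 20.

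**Figure D3:**
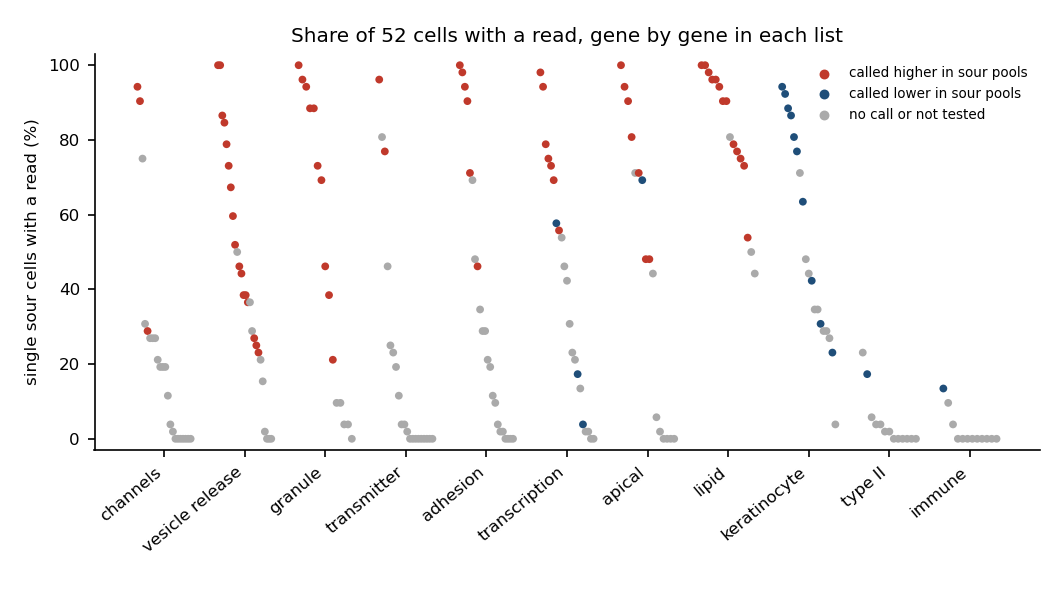
Each point is 1 gene, placed by the percentage of the 52 cells with a read and grouped by gene list; red genes were called higher and blue genes lower in the sour pools, grey ones had no call or were not tested. The lists drawn are those for sodium and calcium channels, vesicle release, granules, transmitters, adhesion, transcription factors, the apical membrane, lipids, keratinocytes, type II cells and immune cells. All but type II and immune hold a gene seen in over 90% of cells; the highest share was 23.1% on the type II list and 13.5% on the immune list.

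Genes for contact with nerve fibres and for cell identity had a similar uneven spread. Of 22 adhesion and axon contact genes, Ncam1 was seen in every cell, the neurotrophin gene Bdnf in 49 and Dner, a Notch-related surface protein, in 47. Among 21 transcription factor genes, Hes6, an inhibitor of Hes1 activity, was seen in 51 cells, Nkx2-2 in 41, Prox1 in 39, St18 in 38 and Foxa2 in 36. Neurod1 was seen in none. Hes6 ran from 0 through 755 to 3626 CPM, with 2289 and 3024 CPM in the sour pools against 46.99, 36.7, 171 and 96.0 CPM (log2 fold change 4.90, SE 0.49, adjusted p = 5e-06). Hes1, a Notch target, was seen in 30 cells; its median in those cells was 58.4 CPM, against 118 to 628 CPM in the control pools. At the apical membrane, Cib3, a calcium-binding protein, was seen in all cells (3.98 to 1877 CPM, median 652), Tspan1 in 49, the actin bundler Vil1 in 47 and the actin bundler Espn in 42.

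Genes of sterol and fatty acid synthesis were a less familiar feature. Of 16 on the list 15 were seen in at least 26 cells and 8 in at least 90% of cells, and 13 of 15 tested were called higher in the sour pools (15% of all tested genes). Insig1, which restrains cholesterol synthesis, was seen in every cell at 10.1 to 4652 CPM (median 441). Hmgcs1, an early enzyme of that pathway, was seen in 50 cells, squalene synthase Fdft1 in 51, Fdps in 49, and Sqle and Cyp51 in 47. Fdft1 had 1563 and 1586 CPM in the sour pools against 115, 129, 74.8 and 192 CPM, a log2 fold change of 3.59 (SE 0.35, adjusted p = 4.7e-06), and Sqle had 1141 and 1019 against 169, 121, 61.5 and 180.4 CPM, a log2 fold change of 2.99 (SE 0.37, adjusted p = 3.8e-05). The calls of Hmgcs1 (log2 fold change 2.16, SE 0.56, adjusted p = 0.0087) and Insig1 (2.08, SE 0.61, adjusted p = 0.018) were each lost without 1 of the sour pools: Hmgcs1 was at 1.16 without sour pool 1, and Insig1 at 1.96 without sour pool 2. DESeq2 did not call Hmgcs1 either (adjusted p = 0.076). Across cells these genes did not move as a block: the 55 pairs of 11 of them had rho of -0.37 to 0.45 (median 0.11, 52 cells). Xbp1, the transcription factor of the unfolded protein response, which also drives secretory capacity, was seen in 51 cells at a median of 3771 CPM, with 4472 and 6594 CPM in the sour pools against 211, 257, 436 and 224 CPM (log2 fold change 4.26, SE 0.36, adjusted p = 1.4e-06).

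The sterol response element TCACNCCAC, bound by the SREBP factors that switch on this pathway, was looked for on both strands in the 250 bases before the start site of each RefSeq gene (GRCm38.p6). Of the 8 listed genes with a promoter entry 1, Hmgcs1, held it in any of its windows. Counted window by window, 1.05% of 32851 promoters held it, so the shares are not on the same scale. The stretch is shown because it is the match within this list; capitals mark the match. It lies on the plus strand at chr13:119690169-119690267.
Hmgcs1: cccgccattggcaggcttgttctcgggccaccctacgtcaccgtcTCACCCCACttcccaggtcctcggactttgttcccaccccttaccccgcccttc

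Marker genes of other cells were sparse in most cells, with keratinocyte genes as the main exception and basal genes high in some cells. The 11 lingual basal and progenitor genes summed to 0 to 11894 CPM (median 179.6). Their sums were 292 and 340 CPM in the sour pools and 33935 to 44740 CPM in the control pools. The 6 type I (glia-like) genes summed to 0 to 1576 CPM in cells (median 18.8), against 200 to 660 CPM in the control pools. Of 13 type II (sweet, umami and bitter) genes 6 were seen in no cell, among them Trpm5, Gnat3 and Plcb2, and the summed level was 0 to 658 CPM (median 0), against 42.2 and 84.9 CPM in the sour and 123 to 365 CPM in the control pools. All 8 salivary gland genes were seen in no cell, as were 9 of 12 immune genes, among them Ptprc and Csf1r. The immune sum was 0 to 269 CPM in cells and 4150 CPM in sour pool 1, of which Lyz2 alone gave 3822 CPM, and 5.3 CPM in sour pool 2. Stromal genes summed to 0 to 5559 CPM, the highest value being Dcn in well 318, and to 1838 CPM at most without wells 318 and 319. Cell cycle genes summed to 0 to 942 CPM (median 190.4), against 2662 to 4776 CPM in the control pools, and Mki67 was seen in 2 cells. The 19 keratinocyte genes summed to 535 to 67553 CPM (median 2410.4), and cells held 2 to 19 of them. The sour pools had 2942 and 3904 CPM and the control pools 47253 to 70617 CPM. Krt4 was seen in 49 cells and Krt13, its partner keratin, in 48, whereas the basal keratins Krt14 and Krt15 were seen in 28 and 27. Without wells 300, 301, 318 and 319 the keratinocyte sum still reached 49053 CPM. In pools, fewer cells of a type and less RNA per cell cannot be told apart.

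The spread between cells differed from gene to gene. Over the 764 genes seen in at least 80% of cells the coefficient of variation (SD over mean, in percent) ran from 42.4% to 237% with a median of 95.8%, and it was above 100% for 332. For their level the most variable were the keratin Krt4 (CV 179%, median 685, highest 20649 CPM; CV 157% without wells 318 and 319 and 145% without wells 300 and 301 as well), the desmosome protein Dsp (216%), Gnl3l (212%), a nucleolar GTPase, and Acsl4 (234%), which activates long-chain fatty acids. Gnl3l ran from 0 through 430.1 to 12444 CPM and Acsl4 from 0 through 148 to 8183 CPM, so that a few cells held levels far above the rest. Krt6a (202%) and Perp (192%), like Krt4 and Dsp on the keratinocyte list, were also among the 12 most variable, while Krt13 (168%) was not. The steadiest were Ppia, Atpif1, Ppp1ca and the nucleic acid binding protein Cnbp (CV 42.8%, median 1308 CPM), and among sour cell genes Snap25 had a CV of 52.2% and Cib3 58.7%. Of the markers Pkd1l3 had the largest CV, 130.2%, against 63.9% for Pkd2l1. Well 379 alone held 20795 CPM of Pkd1l3, and the next highest cell, well 337, held 7994 CPM. The CV without well 379 was not computed, so this rank may rest on that cell.

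**Figure D4:**
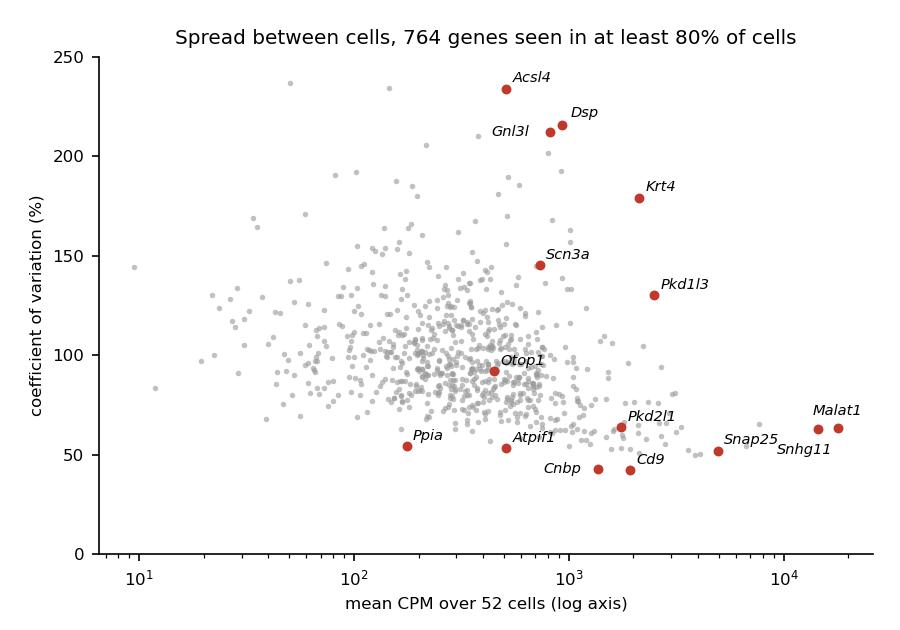
Coefficient of variation over the 52 cells (y axis) against mean CPM (log x axis) for 764 genes seen in at least 80% of cells, with named genes in red. Krt4, Dsp, Gnl3l and Acsl4 lie far above genes of like level, and Cd9 (42.4%) and Cnbp (42.8%) lie at the lower edge.

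Some genes had a read in at most 50% of cells yet a high level where seen. They were picked by that level, and a cell without a read need not lack the RNA. Genes seen in 10% to 50% of cells were ranked by their median in the cells that had a read. The highest were Zfp260 at 573 CPM (18 cells), Zfp54 at 546 CPM (11 cells) and Zfp719 at 533 CPM (8 cells). Acnat1, an enzyme gene of fatty acid conjugation, was seen in 24 cells at a median of 487 CPM and had 166 and 69.0 CPM in the sour pools, without any control read (at least 69.8-fold higher, adjusted p = 9.5e-05). Enpp5, a nucleotide pyrophosphatase family gene, was seen in 26 cells, at a median of 458 CPM in them, with 164 and 100.8 CPM in the sour pools and 2 reads in the control pools (adjusted p = 6.7e-05).

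Levels averaged over the cells lay within 3-fold of the sour pools for most genes. Of 5357 genes above 50 CPM in either, 4250 (79.3%) had means of the cells and of the sour pools within 3-fold of each other, with a Pearson r of 0.498 over these genes. The gap junction gene Gja1 had no read in either sour pool and a mean of 805 CPM over the cells (median 3.77, seen in 29 cells); wells 318 and 319 held 6277 and 7074 CPM, and the mean without them was 569.8 CPM. Jag1, a Notch ligand gene, and the protease gene Tmprss11d had no read in the sour pools and were seen in 9 and 8 cells. In the other direction Lyz2, Retnla, Csf1r and F13a1, genes of myeloid cells, were seen in no cell. They had 3822, 208, 189 and 109 CPM in sour pool 1 and none in sour pool 2. Ltf, Msln and Dmbt1 had 4623, 1362 and 499 CPM in sour pool 1 and none in sour pool 2. These 3 were seen in 3, 1 and 1 cells. Serpina1e had 99.2 and 5.3 CPM in the sour pools and was seen in no cell.

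Co-varying genes were sought among 5331 genes with at least 10 reads in at least 13 cells. Spearman's rho over the 52 cells had a median of 0.08 over 14207115 pairs and exceeded 0.5 in 0.198% of them. Most genes were higher in cells with more genes seen (median rho 0.27). That number was taken out by a linear fit of log2(CPM + 1) on its logarithm. The median over pairs was then 0.01 and the share over 0.5 was 0.0601%. Grouping by average linkage at rho 0.5 gave 34 groups of at least 5 genes, holding 258 genes, of which 27 groups had 5 to 7 genes. Taking out the number of genes seen left 13 groups with 93 genes. All of these values share library depth and are descriptions without a test.

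The largest group, of 40 genes, was led by the water channel Aqp3, Calml3, the keratin Krt14, Dmkn and the keratin Krt15. It held the further keratins Krt4, Krt5, Krt6a, Krt6b and Krt17 beside genes of other kinds, among them Apoe, Mt2 and the ribosomal protein gene Rps16. Its median rho was 0.55, and 36 of its 39 tested genes were lower in the sour pools (14.4% of all tested genes). The group's summed level ran from 331 to 88064 CPM (median 2723), with an upper quartile of 11221 CPM, against 3852 and 3724 CPM in the sour pools and 104798 to 128952 CPM in the control pools. The highest cells were wells 319 (88064 CPM), 318 (79634 CPM) and 372 (54687 CPM), and 3 cells held all 40 genes. With the number of genes seen taken out, the group that held Krt14 had 29 genes, 26 of them from the 40. Without wells 318 and 319 it had 15 genes, all from the 40, and without wells 300 and 301 as well it had 17, of which 15 were shared.

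A group of 12 held the keratins Krt7, Krt8 and Krt19, the tight junction gene Cldn3, the granin Chga, the sterol regulator Srebf2, Ckb and Stmn3, with Fscn1, Mlf2, Pld3 and Guk1 (median rho 0.59). Of its 12 genes 11 were called higher in the sour pools (15% of all tested genes). The summed level ran from 566 to 19130 CPM (median 4130.0), against 27128 and 27655 CPM in the sour pools. Krt7 had a median of 1677 CPM in the cells and at most 6512 CPM, against 15247 and 15533 CPM in the sour pools, so every cell lay below both pools. With the number of genes seen taken out, Krt7 was in no group. A group led by Rps2 and Rpl13 held 12 ribosomal protein genes and Myl6; all 13 were called lower in the sour pools (14.4% of all tested genes). The 13 genes around Espn included Pisd-ps1 and Pisd-ps2, related pseudogenes whose reads may not have been told apart.

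**Figure D5:**
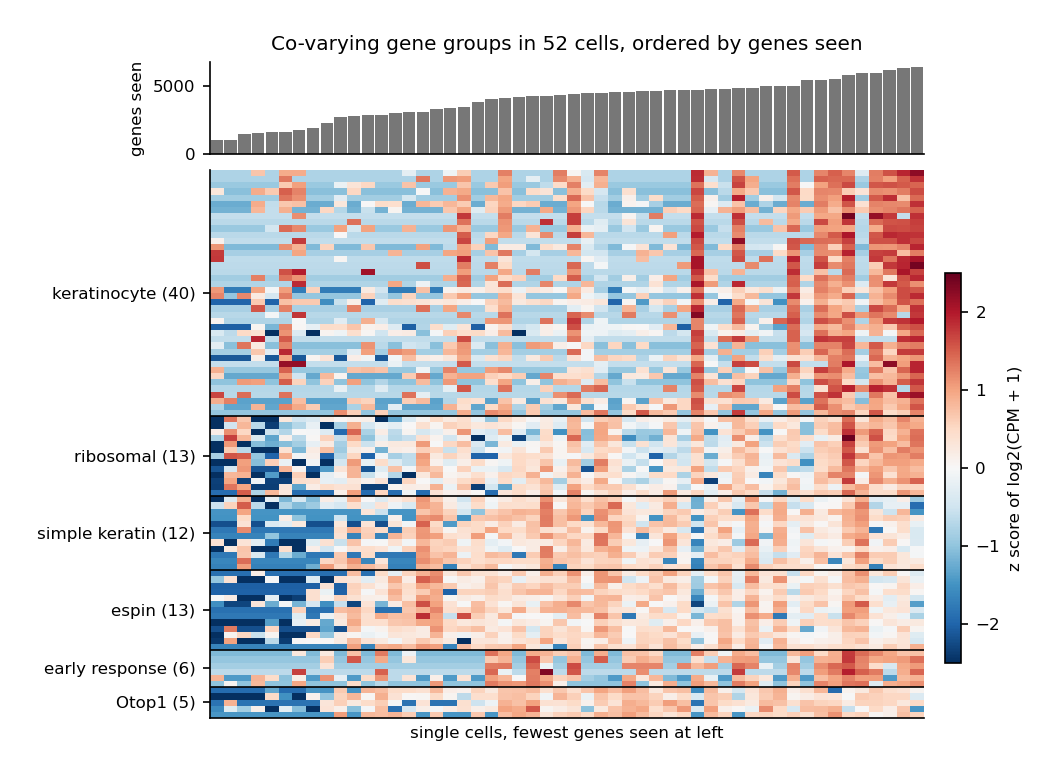
Rows are the genes of 6 co-varying groups (number of genes in brackets) and columns the 52 cells, ordered by the number of genes seen (grey bars); colour is the z score of log2(CPM + 1) of a gene over the cells. The group labelled keratinocyte, which holds Krt14, is high in single columns, most of them at the right, while the cells at the far left, with the fewest genes seen, are low in most groups.

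Early response genes formed a tight group of 6: Zfp36, which speeds the decay of inflammatory messenger RNAs, the AP-1 genes Junb and Fos, the nuclear receptor gene Nr4a1, Egr1 and Ubap1, an endosomal sorting gene. These genes, Ubap1 aside, are switched on within minutes of many stimuli. Their 15 pairs had rho of 0.53 to 0.82 (median 0.61), the highest being Zfp36 with Junb. With the number of genes seen taken out, here by its ranks, the median was 0.53. Junb was seen in 27 cells, all with Zfp36, and Nr4a1 in 17, all with Zfp36 and Fos. The group's sum ran from 0 through a median of 731 to 10044 CPM; 7 cells had no read of any of the 6 and 13 had reads of all. The sour pools had 6883 and 2605 CPM and the control pools 7442 to 10187 CPM. Junb had 598 and 175 CPM in the sour and 1731, 1756, 1743 and 2161 CPM in the control pools, without overlap (log2 fold change -2.26, SE 0.45, adjusted p = 0.0014). Fos had 4507 and 2117 against 3532, 3897, 4089 and 3662 CPM, where the groups overlapped and no difference was called (adjusted p = 0.69). Btg2, an early response gene that stops proliferation, was seen in every cell at 3.98 to 5648 CPM (median 866) and did not follow the group, with rho of 0.03 to 0.13 with its 6 genes. The 6 genes were grouped again without wells 318 and 319 and among the 44 cells with at least 2000 genes, but Fos was in no group with the number of genes seen taken out, or among genes with at least 10 reads in at least 26 cells.

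Promoters of the early response list were searched in the same window for the CArG box, the site of serum response factor, and for the cyclic AMP response element TGACGTCA, on both strands. Of 18 listed genes with an entry, 2 held a CArG box in any of their windows (Egr2 and Zfp36). The cyclic AMP response element was held by 2 (Btg2 and Dusp1). Counted window by window, 1.47% and 1.55% of all promoters held these sites, so the shares are not on the same scale. The stretches of Zfp36, the hub of the group, and of Btg2, which did not follow it, are shown with the match in capitals, both on the minus strand of GRCm38.p6, at chr7:28379232-28379331 and chr1:134079269-134079366.
Zfp36: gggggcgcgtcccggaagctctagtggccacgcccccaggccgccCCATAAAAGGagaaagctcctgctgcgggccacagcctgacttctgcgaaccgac
Btg2: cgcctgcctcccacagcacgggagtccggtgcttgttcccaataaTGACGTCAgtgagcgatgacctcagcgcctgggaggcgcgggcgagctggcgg
A match in these letters is not evidence of binding in these cells.

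Among the 15 pairs of the 6 markers, Pkd2l1 and Pkd1l3 had the highest correlation over the 52 cells, rho = 0.61. With the number of genes seen taken out it was 0.54. Every cell with Pkd1l3 also had Pkd2l1, which was missing in only 1 cell. The other 14 pairs had rho of -0.06 to 0.34. The genes most like Pkd2l1 were Ephb6 (rho 0.63), Stmn3 (0.61), Pkd1l3 (0.61), Tmem14c (0.58) and Pisd-ps1 (0.58). Those most like Otop1 were Gde1 (0.69), Dner (0.64), Fut2 (0.60), D4Wsu53e (0.60) and Slain2 (0.58), and with the number of genes seen taken out the 5 had 0.71, 0.65, 0.68, 0.60 and 0.38. For the 5 most like Pkd2l1 that gave 0.49 to 0.54, with Pkd1l3 the highest. Otop1 thus had a higher rho with Dner than with Pkd2l1 (0.25) or Pkd1l3 (0.34); the difference was not tested. Otop1, Dner, Cd24a, Gde1 and Pgrmc1 formed a group of 5. Otop1 was in no group among the 44 cells with at least 2000 genes, without wells 318 and 319, with the number of genes seen taken out or at a linkage height of 0.4.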

How the data were processed

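RNA of single sorted cells and of pools of 50 to 100 cells was amplified by SMART-Seq chemistry and made into libraries with Nextera XT, per the labels' protocols. The authors deposited raw read counts per gene symbol; the submitters' processing notes list STAR, HTSeq and the build GRCm38 (mm10). Versions and the strand setting are not given in the sources used here, so reads of overlapping and antisense genes cannot be told apart. Left out were 27 rows whose symbols had become dates (at most 1.12% of a cell's reads), 92 spike-ins, 3 reporter rows and the summary rows of HTSeq; 23394 genes remained, of which 21759 (93.0%) matched GENCODE M21, the source of exon lengths and coordinates. Reads outside genes made up 18.5% to 40.3% of a cell's reads.

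Sour pools were compared with control pools by edgeR 4.0.16 (R 4.3.3; TMM scaling, filter by expression, quasi-likelihood test, Benjamini-Hochberg adjustment over 7739 genes). Pool replicates may be technical, since no label names their animals. For genes without any read in one kind of pool, folds are lower bounds that put 3 reads, summed over its libraries, in place of 0. Shares have exact (Clopper-Pearson) 95% intervals. Levels were put on log2(CPM + 1) for correlations; genes with rho above 0.5 on average were grouped by average linkage (Python 3.11.15, scipy 1.17.1). Both were tested on simulated data: the grouping returned a planted group, and the pool test found most large changes and missed nearly all small ones. Promoter sequences are RefSeq's.

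Gene lists, cells and tests were chosen with earlier results of these data known. The genes named are the 6 markers, the 15 genes of highest TPM in every cell, up to 5 genes of each list by share of cells, the 12 of largest spread for their level, the 12 highest where seen in 10% to 50% of cells, up to 6 of each co-varying group, the 5 most like Pkd2l1 and Otop1, and the 8 with the largest difference between cells and sour pools in each direction. Other genes named, among them members of lists past the fifth, genes in no cell, and Pkib, Nov and Btg2, were chosen after their values were seen. The alternatives tried were DESeq2 1.42.0, other scaling, no filter, other thresholds for cells and genes, a larger pseudocount, taking out the number of genes seen, plate as a block in the pool test, and leaving out libraries or cells. Some genes picked by these rules are not reported here.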

Additional observations from a re-analysis of the deposited data

Results flagged for a closer look

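In 11 of the 54 genes whose pool levels were checked, 1 of the 4 control pools lay far from the other 3 by Dixon's test at 95%. Chance passes that test in about 1 of 20 groups of normally distributed values. In 7 of the 11 genes the pool was the only one with a read, which passes at any level. That rate does not apply to these 7. The level was 2.62 CPM for Snap25, 2.62 for Pkib, 2.91 for Pcsk1, 2.62 for Dner, 5.35 for Foxa2, 5.35 for Enpp5 and 11.6 for Cadps2. In the other genes the outlying pool had 64.1 CPM of Scd2 where the others had 223 to 256, 3519.9 CPM of Btg2 where they had 1629 to 1934, 2161 CPM of Junb where they had 1731 to 1756, and 382 CPM of Epcam where they had 160.1 to 173.

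The reporter itself was counted in a row that none of the comparisons used. A tdTomato read was seen in 16 of the 52 single sour cells (30.8%, exact 95% interval 18.7% to 45.1%), with 22 reads at most in a cell and 65 in all. The sour pools had 1 tdTomato read and the control pools 0.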

How the results depend on the processing

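Between the pools 1158 genes were called higher and 1113 lower. Leaving out 1 pool at a time gave 638 to 1290 higher and 761 to 1215 lower, the lowest of both without sour pool replicate 1; such fits with a lone sour pool assume that it varies like the control pools. Of 50 called genes among the 54 tracked, 46 kept their call under every alternative. Without sour pool replicate 1 the log2 fold change of Btg2 turned to -0.15 (1.36 without replicate 2), that of Fos was -0.92 (0.19 without replicate 2) and that of Egr1 -2.77 (0.16 without replicate 2); the cause was not tested. The 359 genes seen in at least 90% of cells became 631 among the 44 cells with at least 2000 genes, since the cells with few genes set that count. The 34 co-varying groups became 13 with the number of genes seen taken out, 7 at a linkage height of 0.4 and 18 among the cells with at least 2000 genes. The other alternatives, including leaving out wells 318 and 319 or those and wells 300 and 301 (both chosen after seeing the data), left these counts within 1.5 times the main ones. Levels without genes of the mitochondrial genome were not computed because no listed gene of it had a row in the table used here. With plate as a block, also chosen after seeing the data, 1224 genes were called higher and 1203 lower, 1103 and 1053 of them shared with the main calls, and of the 54 genes Calm2 alone changed its call. The pool test recovers few small changes with 2 pools against 4.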
